A study of Mus musculus with 384 samples.

Results

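Cholesterol synthesis, its feedback control and intracellular cholesterol transport are represented here by 8 genes: Hmgcs1, Idi1, Fdft1, Sqle, Lss, Sc4mol (the older symbol of Msmo1), Insig1 and Stard4. The genes were chosen by name, and 8 of 8 were found among the 23481 genes of the count table. Expression had been profiled in bone-marrow-derived macrophages, which are macrophages grown from marrow cells in culture, with a digital gene expression assay that counts reads at the 3′ ends of transcripts. The cells came from male C57BL/6 mice of 13 weeks, either wild type (WT) or with the Myd88 gene knocked out (KO). The Myd88 protein links most Toll-like receptors, and receptors of the interleukin-1 family, to their downstream kinases. Cells of both genotypes had been transduced with a pool of pathway reporter viruses on day 4 of culture and replated on day 9. All groups were grown in medium with CMG, as the labels call it, and 30% fetal bovine serum, which carries cholesterol in lipoproteins. A well was given 1 of 12 ligands of innate immune receptors and lysed after 0, 0.5, 1, 1.5, 2, 2.5, 3 or 4 h. The ligands were Pam3Cys, R848, CpG, FLA, LPS, MDP/LPS, Zymosan, Poly(I:C), SeV, TDB, MDP and HT-DNA, as the labels name them.

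There were 2 plates of 96 wells for each genotype (plates 1 and 2), and every combination of ligand and time had a single well on a plate. Whether the 2 plates hold cells of separate mice or cultures is not in the labels, so the p-values measure only the spread between plates, which may be technical. A plate held 1 genotype, so genotype and plate cannot be told apart. The labels give no unstimulated wells after time 0, and time since replating therefore moves with time since ligand. In bulk lysates such as these, fewer cells of a type and less RNA per cell cannot be told apart. Which part of Myd88 was deleted is not given in the sources used here.

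Cells make cholesterol from acetyl-CoA by way of mevalonate, isoprenoid units and squalene, and the first sterol, lanosterol, is then trimmed and reduced to cholesterol. The transcription factor SREBP2 drives most of these genes. When sterols are plentiful, INSIG proteins hold the SREBP escort protein SCAP in the endoplasmic reticulum and the pathway is shut down. In macrophages, Toll-like receptor and interferon signals induce Ch25h, whose product 25-hydroxycholesterol binds INSIG and is known to restrain SREBP2. Hmgcs1 makes HMG-CoA, the precursor of mevalonate, and Idi1 isomerises the isoprenoid unit. Fdft1 is squalene synthase and Sqle is squalene epoxidase. Lss closes the rings to give lanosterol, and Sc4mol takes part in removing methyl groups at a later step. Insig1 is both an SREBP target and a brake on SREBP, and Stard4 carries cholesterol between membranes.

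Sequences before 2 genes are shown because that of Hmgcs1 holds, and that of Insig1 lacks, an exact match to the classical sterol regulatory element, TCACNCCAC. SREBP acts through this element, and elements of other spelling were not searched for. Both sequences are from RefSeq, build GRCm38.p6, plus strand. The first lies at chr13:119690101-119690350 and the second at chr5:28071162-28071362, both upstream of the GENCODE M21 gene, which is at chr13:119690379-119708260 for Hmgcs1 and chr5:28071363-28078662 for Insig1, each on the plus strand. Capitals mark the sterol regulatory element in Hmgcs1, at bases 114 to 122, and the NF-Y box CCAAT, read from the other strand, at bases 35 to 39 of Insig1.
Hmgcs1: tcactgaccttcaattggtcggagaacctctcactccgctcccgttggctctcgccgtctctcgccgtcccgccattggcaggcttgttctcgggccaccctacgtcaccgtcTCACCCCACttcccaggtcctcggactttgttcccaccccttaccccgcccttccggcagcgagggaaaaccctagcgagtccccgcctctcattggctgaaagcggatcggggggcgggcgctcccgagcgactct
Insig1: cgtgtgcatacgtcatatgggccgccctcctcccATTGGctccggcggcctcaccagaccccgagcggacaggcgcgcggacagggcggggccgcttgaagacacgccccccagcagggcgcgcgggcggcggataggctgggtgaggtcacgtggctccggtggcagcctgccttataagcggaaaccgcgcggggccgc
Windows of 250 bases before the RefSeq start were found for 5 of the 8 genes (Hmgcs1, Idi1, Lss, Sc4mol as Msmo1, and Insig1). On either strand, TCACNCCAC was present in 1 of these 5, against 1.05% of 32851 windows of that length. The CCAAT box was present in 5 of 5, against 33.8% of windows, and the Sp1 box GGGCGG in 5 of 5, against 32.7%. By the GENCODE starts, the windows of Idi1, Lss, Sc4mol and Insig1 run into the gene. All CCAAT and GGGCGG matches of Idi1 and of Sc4mol lie inside the gene. Such matches are letters in a window and show no binding, and the lack of a match does not show its absence.

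Wells held 71720 to 767167 counts, with a median of 342561, and 17 wells held fewer than 150000. Levels are given as CPM, each gene's count in a sum of wells scaled to a total of 1000000 counts. Wells of a plate were summed: the 12 wells of time 0 together, and for each ligand those at 0.5 and 1 h as early, those at 1.5 and 2 h as middle, and those at 2.5, 3 and 4 h as late. Late sums held 314684 to 1876446 counts, and time 0 sums 3167670 to 4901235. All 8 macrophage markers were present, at 3502 to 3691 CPM in sum per plate, neutrophil and precursor markers summed to 112 to 134 CPM, dendritic cell markers to 10.5 to 15.9 CPM, and T cell, B cell, fibroblast, erythroid and mast cell markers to 1.18 CPM or less. Myd88 itself stood at 45.9 and 47.7 CPM on the WT plates and at 15.1 and 18.2 CPM on the KO plates. Because only 3′ ends were counted and the deleted part is not stated, this does not test the genotype labels. The 8 genes gave from 347 (Lss) to 16509 counts (Fdft1) over all wells. Each of the 8 passed the filter on low counts, as did 10562 genes in all. Of the 74 groups of 2 plates, Lss had no count in 14 and Idi1 in 8. These 2 genes are therefore described by their counts and given no fold change.

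The first comparison asks how the genes stood in WT and KO cells before a ligand could act. At time 0, Fdft1 stood at 133.8 and 110.5 CPM on the WT plates and at 171.5 and 182.3 CPM on the KO plates. Insig1 stood at 40.8 and 43.9 CPM in WT and at 27.1 and 29.4 CPM in KO, and Stard4 at 11.4 and 13.3 CPM in WT and at 5.97 and 7.62 CPM in KO. The plates of the genotypes did not overlap for these 3 genes, with Fdft1 higher and the feedback gene Insig1 and the carrier Stard4 lower in KO, nor for the sparsely counted Lss, which was higher in KO (20 counts in WT and 33 in KO). Without overlap, 26.4% of all genes lay higher and 21.3% lower in KO. Yet 0 of the 8 genes passed the edgeR quasi-likelihood test at an adjusted p of 0.05, where 0.275% of all genes tested did. None reached an unadjusted p under 0.05 (0 of 8), and DESeq2 called 0 of 8.

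The intervals show what this test could see. The log2 difference, KO minus WT, was 0.51 for Fdft1 (95% confidence interval -0.03 to 1.05), -0.61 for Insig1 (-1.63 to 0.41) and -0.88 for Stard4 (-2.65 to 0.89). The other genes with enough counts differed less. Hmgcs1 averaged 20.5 ± 3.09 CPM in WT and 25.7 ± 5.63 in KO (SD, n = 2 plates each), Sqle 13.4 ± 1.61 and 12.0 ± 1.32, and Sc4mol 28.8 ± 2.98 and 32.3 ± 2.57. Differences of the size seen for Insig1 and Stard4 were thus not detectable in this fit, with an SE of 0.52 and 0.90. A second fit, with ligands summed at each time and chosen after the data had been seen, held the same time 0 sums. There the SE was 0.25 for Insig1 and 0.42 for Stard4, and neither passed (edgeR adjusted p = 0.192 and 0.286).

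Summing all 96 wells of each plate, a step chosen after the data had been seen, gave deeper counts. These sums join time 0 with all times after ligand, so they do not separate the level before ligand from the response. Fdft1 stood at 108.3 and 89.5 CPM on the WT plates and at 159.3 and 152.0 CPM on the KO plates. The log2 difference was 0.56 (SE 0.10, edgeR adjusted p = 0.000569), and with each plate left out in turn it ran from 0.44 to 0.66 and passed every time. Insig1 stood at 44.9 and 40.9 CPM in WT and at 29.5 and 38.7 CPM in KO.

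Squalene synthase was thus higher and the feedback gene lower on the KO plates. For Insig1 the log2 difference was -0.43 (SE 0.13, edgeR adjusted p = 0.0147). This call was lost without KO plate 1 (-0.24, adjusted p = 0.141) and without WT plate 1 (-0.40, adjusted p = 0.0553). These 2 of 8 calls stand beside 30.1% of all genes called in the same comparison, so a difference between whole plates of the genotypes was common. The plates of the genotypes did not overlap for 4 of the 8 genes (Fdft1, Insig1, Sc4mol and Stard4), against 67.6% of all genes. Sc4mol was at 22.2 and 23.8 CPM in WT and 27.7 and 28.1 CPM in KO (log2 0.18, edgeR adjusted p = 0.278). Stard4, lower in KO at time 0, was at 10.6 and 9.21 CPM in WT and 10.7 and 12.4 CPM in KO. Its log2 difference was 0.12 (edgeR adjusted p = 0.625). Because these sums include wells after ligand, they do not check the time 0 order. Hmgcs1 was at 21.9 and 22.7 CPM in WT and at 21.8 and 23.0 CPM in KO. Its log2 difference of -0.09 had an interval of -0.35 to 0.16. Scaling moved the median gene in this comparison from 0.04 to -0.05 on the log2 scale, and the fitted differences are relative to it.

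**Figure D1:**
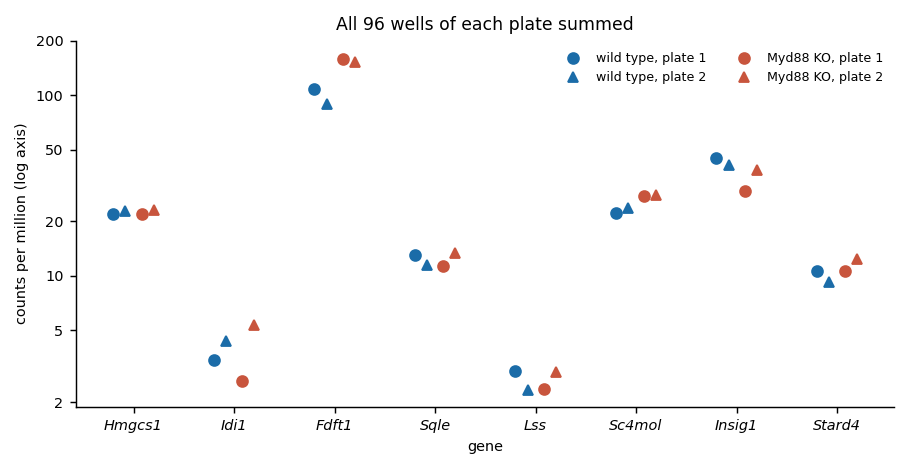
CPM on a log axis of the 8 genes with all 96 wells of a plate summed; blue marks WT and red KO plates, circles plate 1 and triangles plate 2. Both KO plates lie above both WT plates for Fdft1 (159.3 and 152.0 against 108.3 and 89.5) and below them for Insig1, while the Hmgcs1 plates lie within 21.8 to 23.0.

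The genotype order of Fdft1 was the same throughout the time course. With the 12 ligands of a plate summed at each time, both KO plates lay above both WT plates for Fdft1 at 8 of 8 times. By ligand, late after stimulation, this held for 11 of 12 ligands, and for Poly(I:C) the plates overlapped (134.2 and 102.2 CPM in WT, 157.7 and 131.7 in KO). Over all genes tested, KO lay above WT without overlap in 31.4% of gene and time pairs and in 23.0% of gene and ligand pairs. Insig1 lay lower in KO without overlap at 3 of 8 times and for 5 of 12 ligands, where the shares over all genes were 21.7% and 20.6%. The times and ligands are wells of the same plates summed above, so these counts are not independent of the whole-plate comparison.

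**Figure D2:**
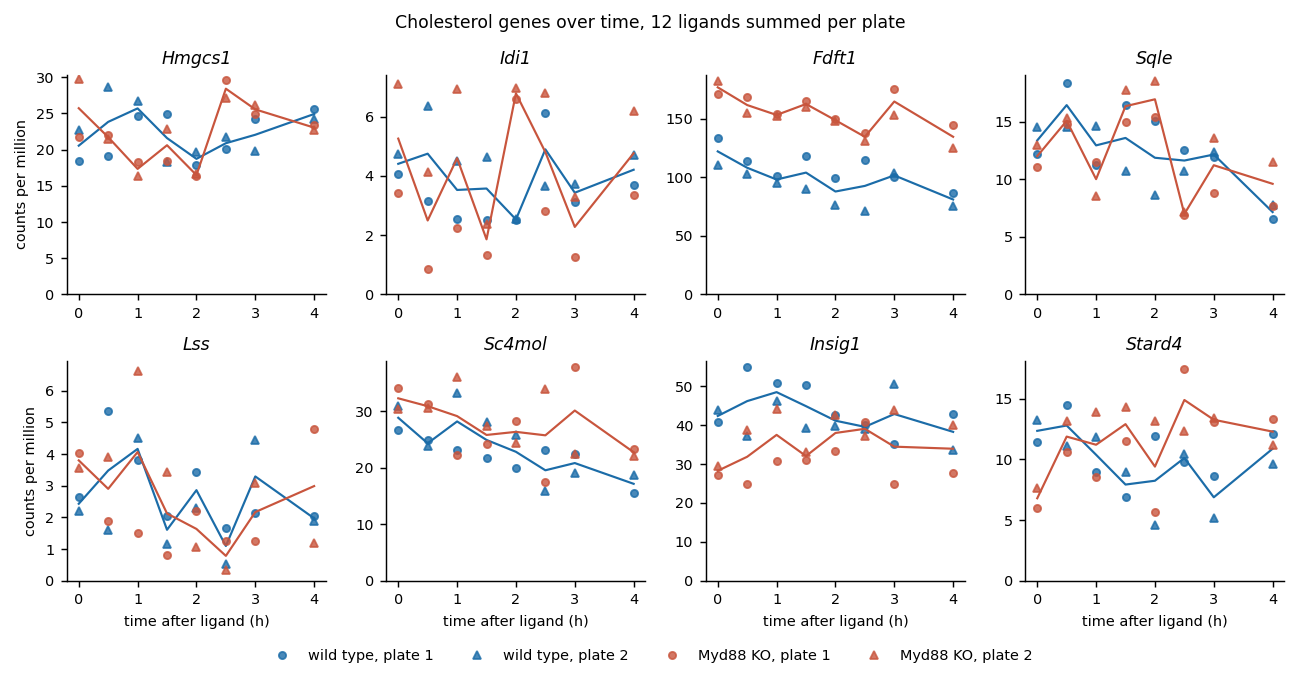
CPM against time after ligand, with the 12 ligands of a plate summed; points are single plates (circles plate 1, triangles plate 2) and lines the mean of 2 plates, blue for WT and red for KO. Fdft1 in KO lies above WT at each of the 8 times, and Stard4 in KO starts at 5.97 and 7.62 and lies at 13.1 and 13.4 at 3 h.

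The next comparison asks how each gene changed from time 0 to late after each ligand. None of the 8 genes passed in any ligand: 0 of 96 tests in WT, where 2.77% of all gene and ligand tests passed, and 0 of 96 in KO, where 2.17% did. At an unadjusted p under 0.05 there were 3 tests in WT and 4 in KO. Those were 3.12% and 4.17% of the members' tests, against 8.37% and 8.12% over all genes. DESeq2 called 2 of 96 in WT, Fdft1 and Sc4mol after MDP/LPS, and 0 of 96 in KO. Without Idi1 and Lss, the median log2 change of the remaining 72 tests was -0.18 in WT and -0.05 in KO, beside -0.05 and -0.06 over all genes.

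Each log2 change here is relative to the bulk of genes, by TMM scaling. It raised the log2 change of the median gene by up to 0.34 in WT (MDP/LPS) and 0.28 in KO (SeV), and by 0.32 and 0.23 for LPS. CPM values carry no such scaling, so a gene can lie lower in CPM than its log2 change shows.

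In the mevalonate arm, Hmgcs1 late levels ran from 6.28 to 52.1 CPM over the 24 WT sums (median 24.6) and from 10.3 to 57.5 CPM over the 24 KO sums (median 24.0). In WT both late plates lay above both time 0 plates for 5 of 12 ligands and below for 4, against 16.4% and 36.7% of all pairs. In KO they lay above for 2 and below for 1, against 15.3% and 32.1%. The highest WT pair followed CpG, at 52.1 and 27.8 CPM against 18.4 and 22.7 at time 0. Both CpG plates lay above both time 0 plates, by 1.13 on the log2 scale (SE 0.62, edgeR adjusted p = 0.654). In KO the same ligand gave 19.0 and 30.8 CPM against 21.7 and 29.7 at time 0, a log2 change of -0.02. The difference between the genotypes' CpG changes did not pass, like those of all 96 member tests of this kind.

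Idi1 was counted 35 times at time 0 and 111 times late in WT, which is 4.34 and 4.12 CPM. In KO it was counted 44 times at time 0 and 87 times late, which is 5.10 and 3.78 CPM. Late groups held 3 or fewer Idi1 counts for 2 of 12 ligands in WT and for 5 of 12 in KO, so changes by single ligands were not measurable for this isomerase.

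At the squalene steps, Fdft1 had the best depth of the set, with 134 to 450 counts per late group. Late after MDP/LPS it stood at 58.8 and 60.1 CPM in WT, against 133.8 and 110.5 at time 0. In KO it stood at 111.3 and 78.8 CPM after MDP/LPS, against 171.5 and 182.3. In each genotype both MDP/LPS plates lay below both time 0 plates. The scaled log2 changes were -0.69 in WT (SE 0.29, edgeR adjusted p = 0.182) and -0.65 in KO (SE 0.29, edgeR adjusted p = 0.239), so neither passed, where 6.00% and 4.70% of all genes did after MDP/LPS. DESeq2 gave -0.68 and an adjusted p of 0.0497 in WT, and -0.61 and 0.109 in KO. Across ligands, both late plates lay below both time 0 plates for 9 of 12 ligands in WT and 8 of 12 in KO, and above them for 0 in either. Above time 0 without overlap lay 16.4% of all WT pairs and 15.3% of KO pairs, and over all genes 36.7% of WT and 32.1% of KO gene and ligand pairs lay lower without overlap. Averaged over ligands, the scaled Fdft1 change was -0.29 in WT (95% interval -0.69 to 0.11) and -0.21 in KO (-0.61 to 0.19).

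Sqle, the squalene epoxidase, had a late median of 10.2 CPM in WT and 9.46 CPM in KO, against time 0 means of 13.4 and 12.0. Its lowest late pair in WT followed SeV, at 5.60 and 1.06 CPM against 12.2 and 14.5 at time 0. That is a log2 change of -1.61 (SE 0.91, edgeR adjusted p = 0.72) from 8 counts. Both late plates lay below both time 0 plates for 6 of 12 ligands in WT and 5 of 12 in KO, near the 36.7% and 32.1% of all pairs.

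In the sterol arm, Sc4mol showed the change closest to the threshold. Late after MDP/LPS it had 0 counts on WT plate 1 and 9.74 CPM on WT plate 2, against 26.7 and 30.9 CPM at time 0. The log2 change was -2.18 (SE 0.77, edgeR adjusted p = 0.0684), and it rests on 12 counts. DESeq2 called it (-2.19, adjusted p = 0.033), as did edgeR with WT fitted alone (adjusted p = 0.02), while without WT plate 1 the edgeR change was -1.28 (adjusted p = 1). Over the alternatives tried, the adjusted p ran from 0.00718 to 1. In KO the values were 7.77 and 13.1 CPM against 34.1 and 30.5, a log2 change of -1.39 (SE 0.75, edgeR adjusted p = 0.376). Both late Sc4mol plates lay below both time 0 plates for 6 of 12 ligands in WT and 7 of 12 in KO, against 36.7% and 32.1% of all pairs. They lay above for 1 ligand in each genotype, against 16.4% and 15.3%. In both genotypes MDP/LPS gave the lowest mean late level of the 12 ligands, 4.87 CPM in WT and 10.5 in KO. HT-DNA gave the highest, at 37.6 and 36.4 CPM in WT and a mean of 45.2 CPM in KO.

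After LPS alone, Sc4mol stood at 10.0 and 15.1 CPM in WT, below both time 0 plates. The KO plates after LPS, at 26.3 and 1.69 CPM, also lay below time 0 but far apart from each other. Lss, which makes lanosterol, was counted 20 times at time 0 and 58 times late in WT (2.48 and 2.15 CPM), and 33 and 51 times in KO (3.82 and 2.22 CPM). Late groups held 3 or fewer Lss counts for 5 of 12 ligands in each genotype.

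For the feedback gene Insig1, no difference between the genotypes' changes passed the test. In WT its late levels ran from 17.4 to 68.6 CPM with a median of 39.8, beside 40.8 and 43.9 CPM at time 0, and both late plates lay above both time 0 plates for 2 ligands and below them for 4, near the 16.4% and 36.7% of all WT pairs. In KO both lay above for 4 ligands and below for 0, against 15.3% and 32.1% of all KO pairs. After SeV the KO plates gave 45.8 and 66.6 CPM against 27.1 and 29.4 at time 0. This log2 change of 1.26 (SE 0.53) had an edgeR adjusted p of 0.274.

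A log2 change of similar size for Insig1 after R848 in KO (1.21, edgeR adjusted p = 1) came from 13.8 CPM on plate 1 and 123.9 CPM on plate 2. The second value belongs to the shallowest late sum of the series, with 314684 counts, and the plates lie on either side of time 0. Without KO plate 2 the change was -0.97, and without KO plate 1 it was 2.20 (edgeR adjusted p = 0.0147). In WT, MDP/LPS gave 44.7 and 64.1 CPM, above both time 0 plates (log2 0.71, edgeR adjusted p = 0.65), while LPS alone gave 27.6 and 23.7 CPM, below them (log2 -0.39, edgeR adjusted p = 0.88).

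Stard4, the cholesterol carrier, had no change past the threshold. In WT both late plates lay below both time 0 plates for 7 of 12 ligands and above for 1. In KO both lay above for 7 and below for 2. Over all genes, 36.7% of WT pairs lay below and 16.4% above, and in KO 15.3% lay above and 32.1% below. The 12 ligands share the same 2 time 0 plates of a genotype, and Stard4 in KO was low on both. The lowest WT pair followed Poly(I:C), at 4.77 and 0 CPM against 11.4 and 13.3 at time 0 (7 counts, log2 -2.13, SE 1.06, edgeR adjusted p = 0.316). After the same ligand the KO plates gave 9.59 and 16.3 CPM against 5.97 and 7.62.

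The difference between the genotypes' Stard4 changes after Poly(I:C) was 3.19 on the log2 scale (SE 1.40) and did not pass (edgeR adjusted p = 1). Among the KO ligands below time 0 was SeV, with Stard4 at only 3 counts over both plates, for which no fold is given.

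**Figure D3:**
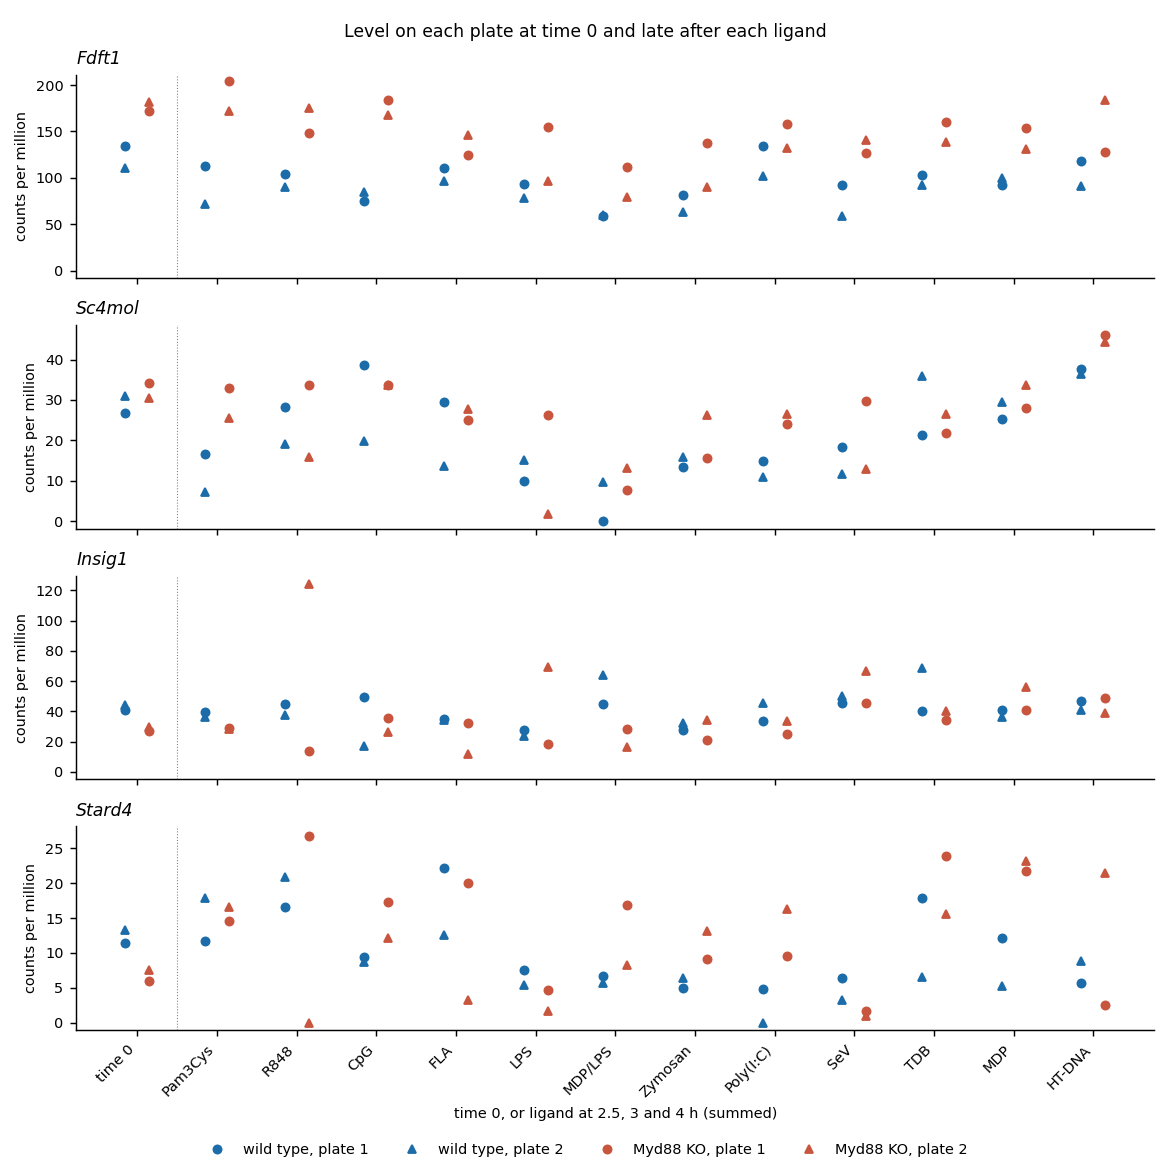
CPM of Fdft1, Sc4mol, Insig1 and Stard4 on each plate at time 0 and, for each ligand, over 2.5, 3 and 4 h; blue marks WT, red KO, circles plate 1 and triangles plate 2. The mean of the Sc4mol plates is lowest after MDP/LPS in both genotypes, and the Insig1 plates of KO after R848 lie at 13.8 and 123.9.

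**Figure D4:**
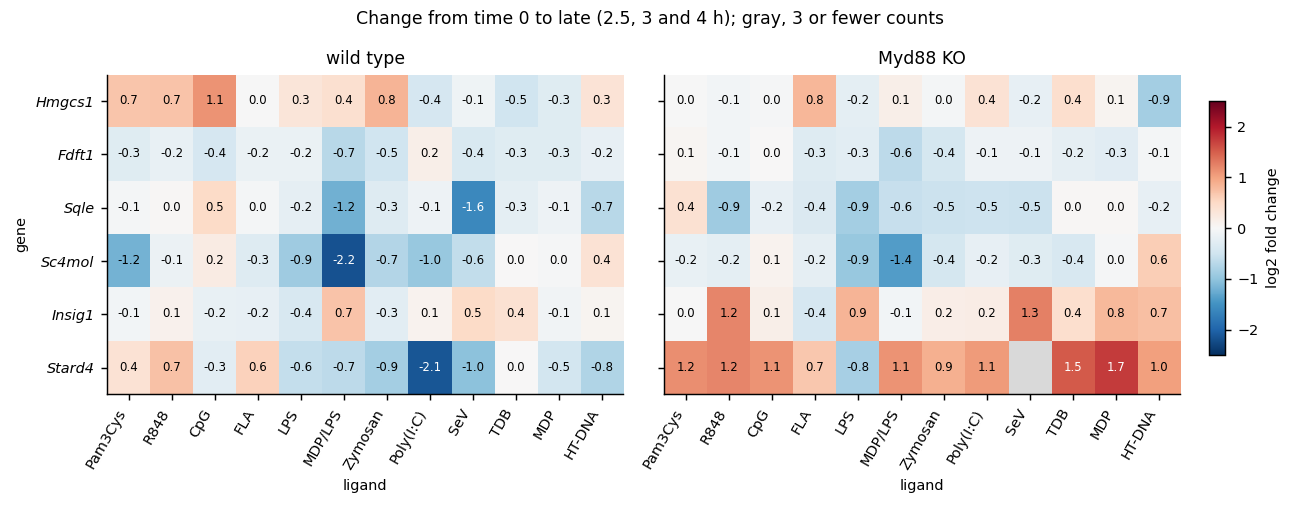
Scaled log2 change from time 0 to late for 6 genes (Idi1 and Lss left out) and 12 ligands in WT and KO, with gray where the late group held 3 or fewer counts; no cell passed the test. The lowest values are those of Sc4mol after MDP/LPS (-2.18) and Stard4 after Poly(I:C) (-2.13) in WT, and Stard4 in KO is above 0 for most ligands.

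Averaged over the 12 ligands, 0 of 8 genes passed in WT (3.48% of all genes did) and 0 of 8 in KO (1.25%). None (0 of 8) had an unadjusted p under 0.05 in either genotype. DESeq2 called 0 of 8 in each. Of the averages of the 6 genes other than Idi1 and Lss, 4 lay below 0 in WT and 3 in KO. The difference of these averages between genotypes passed for 0 of 8 genes and for 0% of all genes. Its largest value among those 6 genes was that of the thinly counted Stard4, 1.15 (95% interval -0.72 to 3.02). The Stard4 average in KO was 0.73 (-0.61 to 2.07), and -0.22 without KO plate 1. Fdft1 had the narrowest interval, -0.48 to 0.65 around 0.08, so differences in its response larger than these bounds are outside the interval.

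With the ligands of a plate summed at each time, a step chosen after the data had been seen, Stard4 passed in KO. Its KO plates stood at 5.97 and 7.62 CPM at time 0, at 17.5 and 12.3 CPM at 2.5 h, at 13.1 and 13.4 CPM at 3 h and at 13.4 and 11.2 CPM at 4 h. All late values lay above both time 0 values, and the mean late log2 change was 1.08 (SE 0.35, edgeR adjusted p = 0.0403), where 9.16% of all genes passed. Without each plate in turn the adjusted p ran from 0.0737 to 0.363, so the call rests on all 4 plates.

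In WT, Stard4 went from 11.4 and 13.3 CPM at time 0 to 12.1 and 9.63 CPM at 4 h, a mean late log2 change of -0.25 (SE 0.33). The difference between genotypes, 1.33 (SE 0.48), did not pass (edgeR adjusted p = 0.28), as 0.579% of all genes did. No member passed in WT (0 of 8, against 14.5% of all genes), and none reached an unadjusted p under 0.05. At single times against time 0, 0 of 56 member tests passed in WT (6.09% of all tests did) and 0 of 56 in KO (3.85%), although 2 and 7 had an unadjusted p under 0.05. Both KO plates lay above time 0 for Stard4 at 6 of 7 times, for Insig1 at 4 of 7, for Sqle at 3 of 7 and for Hmgcs1 at 0 of 7, where 17.7% of all KO gene and time pairs did. Hmgcs1 lay below time 0 in KO at 2 of 7 times, and above it in WT at 2 of 7, against 18.1% of all WT pairs. Fdft1 lay below time 0 without overlap at 4 of 7 times in WT and 6 of 7 in KO, against 31.0% and 24.4% of all pairs. Sc4mol did so at 5 of 7 times in WT and 3 of 7 in KO.

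In these sums Fdft1 went from 133.8 and 110.5 CPM at time 0 to 86.6 and 75.5 CPM at 4 h in WT, a log2 change of -0.37 (SE 0.16, edgeR adjusted p = 0.146). In KO it went from 171.5 and 182.3 CPM to 144.6 and 124.7 CPM (log2 -0.25, SE 0.16, edgeR adjusted p = 0.42). Both 4 h plates lay below both time 0 plates in each genotype. Sqle stood at 6.57 and 7.74 CPM at 4 h in WT (log2 -0.67, edgeR adjusted p = 0.267) and Hmgcs1 at 25.7 and 24.2 CPM (log2 0.51, edgeR adjusted p = 0.245), so these genes lay on opposite sides of time 0 without passing.

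No member passed at earlier times. In the early wells 0 of 96 tests passed in WT (0.276% of all tests did) and 0 of 96 in KO (0.184%). In the middle wells 0 of 96 passed in each, beside 0.939% and 0.811% of all tests. At an unadjusted p under 0.05 there were 2 early and 4 middle tests in WT and 1 of each in KO, and DESeq2 called 0 in each of these 4 sets. Among them, Fdft1 in WT stood at 83.2 and 61.2 CPM early after R848 and at 77.1 and 65.7 CPM in the middle wells after CpG, against 133.8 and 110.5 at time 0 (log2 -0.67 and -0.68). Insig1 stood at 17.9 and 15.0 CPM early after SeV in WT, against 40.8 and 43.9 (log2 -1.34, edgeR adjusted p = 1).

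Each ligand's late level was also set against the mean of the other 11, which removes the shared time 0 wells. Of 96 tests, 0 passed in WT (2.38% of all tests did) and 0 in KO (2.85%). An unadjusted p under 0.05 was reached by 6 and 7 tests, and DESeq2 called 1 in each, Sc4mol after MDP/LPS in WT and Stard4 after SeV in KO. The lowest adjusted p was that of Stard4 after SeV in KO (0.0946), from 3 counts. In WT, Sc4mol after MDP/LPS lay below the other ligands by a log2 value of -1.78 (edgeR adjusted p = 0.145, SE 0.65). After HT-DNA it lay above them, by 0.99 in WT (edgeR adjusted p = 0.321) and 0.99 in KO (edgeR adjusted p = 0.361). The test of differences between genotypes, ligand by ligand, passed for 0 of 96 members' tests (0.148% of all tests did), with 2 at an unadjusted p under 0.05.

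The other genes of sterol metabolism were read from 6 lists of 51 genes, of which 44 passed the filter on low counts. Among the other mevalonate enzymes (6 of 7 tested) and the other sterol-arm enzymes (7 of 8 tested), 0 rose and 0 fell late in either genotype. In the 8 genes of sterol sensing and SREBP control, 0 of 96 late tests passed in WT and 1 in KO, where Rnf139, a ubiquitin ligase of the endoplasmic reticulum, rose after Poly(I:C) (log2 1.53, edgeR adjusted p = 0.0338).

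Among 10 tested genes of uptake and transport, 4 passed late with at least 1 ligand. Late in WT, 9 of 120 tests rose (Msr1 with 7 ligands and Stard3 with 2) and 2 fell (Lipa), where 2.77% of all tests passed. In KO 3 rose (Msr1) and 2 fell (Npc1), where 2.17% passed. Msr1, a scavenger receptor for modified lipoproteins, stood at 122.8 and 127.5 CPM at time 0 in WT and at 322.9 and 359.2 CPM late after LPS (log2 1.77, SE 0.32, edgeR adjusted p = 1.55e-05). It rose in WT with 7 ligands (Pam3Cys, R848, CpG, LPS, MDP/LPS, Zymosan and Poly(I:C)), and in KO with 3 (LPS, Zymosan and Poly(I:C)). After Pam3Cys the KO plates stood at 74.1 and 92.1 CPM against 80.5 and 86.3 at time 0.

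The genotype difference of the Msr1 response to Pam3Cys was -1.51 (SE 0.45) and did not pass (edgeR adjusted p = 0.131). Lipa, the lysosomal cholesterol ester hydrolase, fell in WT after LPS, from 1286 and 1220 CPM to 643 and 615 (log2 -0.67, edgeR adjusted p = 0.0254), and after MDP/LPS. Npc1, which exports cholesterol from lysosomes, fell in KO after Poly(I:C), from 398.9 and 458.4 CPM to 171.1 and 160.8 (log2 -1.21, edgeR adjusted p = 0.00346), and after MDP/LPS. Stard3, a relative of Stard4 on late endosomes, rose in WT after LPS, from 49.4 and 38.8 CPM to 85.3 and 85.2 (log2 1.28, edgeR adjusted p = 0.0478), and after Poly(I:C).

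Among oxysterol, ester and efflux genes, Ch25h rose in KO with 5 ligands. Late after Poly(I:C), KO plates stood at 64.0 and 137.7 CPM against 4.69 and 9.90 at time 0 (log2 3.92, SE 0.75, edgeR adjusted p = 0.000244). After MDP/LPS, Zymosan, SeV and LPS the KO log2 changes were 3.91, 3.45, 3.26 and 2.79. In WT the Poly(I:C) plates stood at 89.2 and 61.7 CPM against 13.9 and 20.8 (log2 2.31, SE 0.73, edgeR adjusted p = 0.0562), and no WT ligand passed against time 0. Against the other 11 ligands, Poly(I:C) in WT passed (log2 1.56, edgeR adjusted p = 0.0327). The genotype difference after Poly(I:C), 1.61 (SE 1.05), did not pass (edgeR adjusted p = 1).

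In WT, Abcg1, which exports cholesterol to lipoproteins, fell after LPS from 233.6 and 196.0 CPM to 72.8 and 70.1 (log2 -1.26, edgeR adjusted p = 0.00309) and after MDP/LPS. Soat1, which esterifies cholesterol, fell after LPS (log2 -0.95, edgeR adjusted p = 0.0438). Of the fatty acid genes that respond to SREBP, Fads1, a fatty acid desaturase, fell in WT after R848 and LPS (log2 -2.13 and -2.25, edgeR adjusted p = 0.0401 and 0.0183), and 0 of 72 late tests passed in KO. Averaged over ligands, Msr1 rose in WT (log2 1.04, edgeR adjusted p = 0.0044) and Scd2, a fatty acid desaturase with ligand groups at 0 counts, fell. In the middle wells in KO, Ch25h rose after MDP/LPS and Zymosan (log2 3.58 and 3.18), and Cyp27a1, which makes 27-hydroxycholesterol, fell after MDP/LPS to 2 counts.

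With the ligands of a plate summed, more of these genes passed in the mean late change, at the background shares given above. In WT, Acat2, a mevalonate-arm gene that makes acetoacetyl-CoA, rose (log2 0.63, SE 0.19, edgeR adjusted p = 0.0192). Ch25h rose in both genotypes, by 1.40 on the log2 scale in WT and 2.33 in KO (edgeR adjusted p = 3.8e-05 and 1.17e-08), and Nr1h3, the oxysterol receptor LXR alpha, by 0.95 and 1.04. At time 0 in the same sums, where 3.62% of all genes passed, 4 list genes were lower in KO. They were Ch25h (log2 -1.29, edgeR adjusted p = 0.0166), Msr1 (-0.63), the fatty acid and lipoprotein receptor Cd36 (-0.69) and Mylip (-0.73), a ubiquitin ligase induced by oxysterols. Of the 8 members 0 passed, and 3 (Fdft1, Insig1 and Stard4) had an unadjusted p under 0.05. The lists were chosen with results of these data known, and their counts are no independent evidence of direction.

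**Figure D5:**
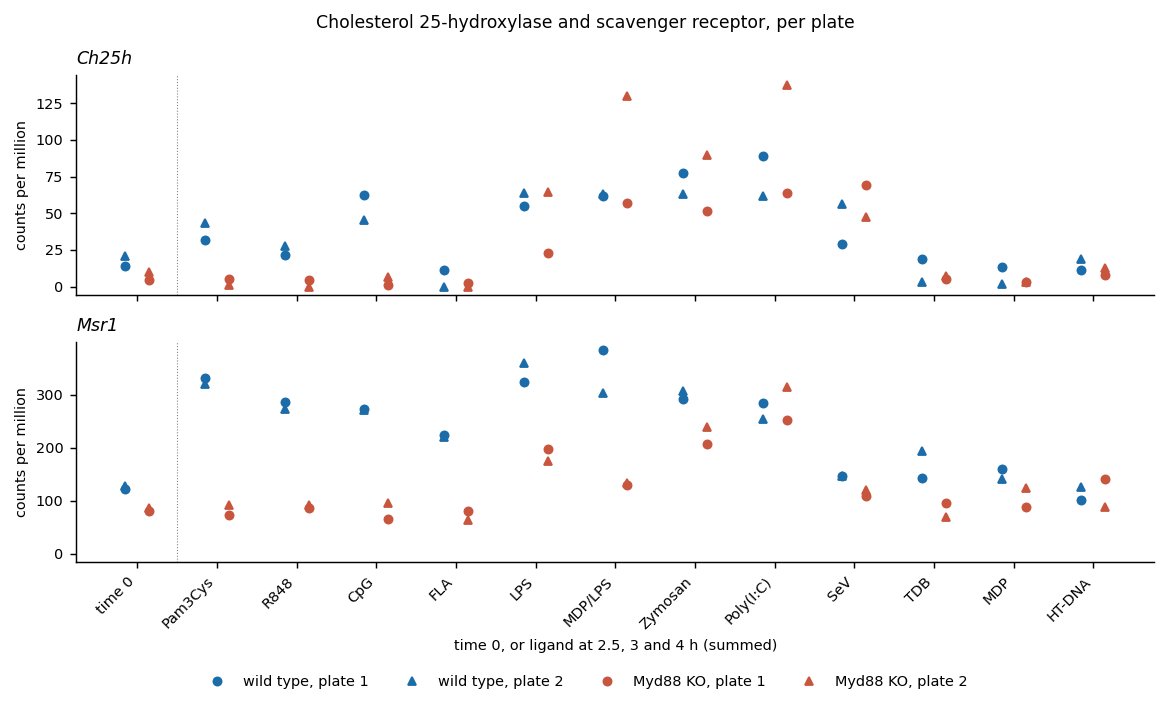
CPM of Ch25h and Msr1 on each plate at time 0 and, for each ligand, over 2.5, 3 and 4 h; blue marks WT, red KO, circles plate 1 and triangles plate 2. Msr1 lies at 322.9 and 359.2 after LPS in WT against 122.8 and 127.5 at time 0, and Ch25h in KO lies at 64.0 and 137.7 after Poly(I:C) against 4.69 and 9.90.

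The ligands with Ch25h above both time 0 plates in KO include MDP/LPS, after which Fdft1 and Sc4mol had their lowest mean late levels in both genotypes. They also include Poly(I:C), after which Fdft1 in KO stood at 157.7 and 131.7 CPM and Sc4mol at 24.0 and 26.5 CPM, nearer to their time 0 values. Any relation between these genes was not tested.

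Correlations among the 8 genes were weak. Over the 74 groups, the 28 pairwise correlations of their log2 CPM ran from -0.371 to 0.287 with a median of 0.03. In counts this sparse, such values are a description only, and the groups share 4 plates. Of 4328 other genes with a mean of at least 30 CPM, those whose pattern was most like the mean of the 8 standardised profiles over the 74 groups were Mbtd1 (r = 0.468), Amd1 (0.455), Irak1 (0.455), Mut (0.434) and Mrpl19 (0.428).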

How the data were processed

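Reads had been mapped with BWA to mm10, per the submitters' processing notes, and the deposited table holds the authors' whole-number count per gene and well, not normalized. For versions, gene annotation and strand handling, nothing was stated in the labels. The wells of each plate were summed by ligand and time class, giving 148 sums in 74 groups of 2 plates. Genes with enough counts (filterByExpr, minimum count 10) were kept, 10562 in all, scaled by TMM and tested with edgeR's quasi-likelihood test (edgeR 4.0.16, R 4.3.3), with Benjamini-Hochberg adjustment within each comparison and a threshold of 0.05. The test was tested on simulated data. CPM values use plain totals. DESeq2 1.42.0, other scaling, filters, blocks, replicate units and left-out plates were alternatives, and sums over ligands or whole plates were added after seeing the data.

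The members and the gene lists were chosen with earlier results of these data known. All 8 members are named; genes of the other lists are named where they passed a test. Results of some list genes are not reported here. The most similar genes are the 5 outside the lists with the highest Pearson correlation over the 74 groups among genes with a mean of at least 30 CPM. No 2 wells were identical.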

Additional observations from a re-analysis of the deposited data

How the results depend on the processing

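The counts of members called were 0 in all 13 comparisons of the edgeR fit on plate sums. Replacing plate sums by wells, which share a plate and are not independent cultures, gave 1 call for genotype at time 0, 2 for late change in WT, 2 for late change in KO, 1 and 2 for the mean late change in WT and KO, and 2 for a ligand against the other 11 in KO. DESeq2 gave 2 calls for late change in WT and 1 for a ligand against the other 11 in WT and in KO. Fitting WT alone gave 1 call for late change in WT, and leaving out wells under 150000 counts gave 2 for a ligand against the other 11 in KO. Summing whole plates gave 2 calls for genotype over all times together, and summing ligands 1 for the mean late change in KO. With each plate left out, a lone plate is assumed to vary like the other groups, so those fits are read below by their log2 values. For genotype they were run on time 0 sums and on whole plates, which are different comparisons. The causes of the changes in these counts were not tested.

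Signs that changed belonged to values that had not passed. With each plate left out, the log2 values ran from -0.0011 to 0.27 for Sc4mol: genotype at time 0, -0.97 to 2.20 for Insig1 after R848 in KO, -0.12 to 0.49 and -0.23 to 0.28 for the mean late change of Hmgcs1 in WT and KO, -0.073 to 0.13 for that of Insig1 in WT, and -0.22 to 0.95 for that of Stard4 in KO. The genotype differences of the mean late change ran from -0.024 to 0.21 for Fdft1, -0.48 to 0.15 for Hmgcs1 and -0.39 to 0.31 for Sqle. With ligands summed and 1 plate left out, Sc4mol by genotype was -0.0013 (without WT plate 1), the mean late change of Stard4 in WT 0.0013 (without WT plate 2) and that of Hmgcs1 in KO -0.12 (without KO plate 1), and the genotype differences were -0.033 for Fdft1 (without KO plate 1), 0.060 for Hmgcs1 (without KO plate 2), and 0.067 and 0.054 for Sqle (without WT plate 1 and KO plate 1). Without wells under 150000 counts, Sc4mol by genotype was -0.00067, Insig1 after R848 in KO -1.02, the mean late change of Hmgcs1 in KO -0.053, and the genotype differences of Insig1 and Sqle -0.013 and 0.093. With late as 3 and 4 h, Hmgcs1 in KO was -0.22 and the Sqle difference 0.15. With wells as units, Insig1 in WT was -0.028. The Sqle difference was 0.029 with DESeq2, 0.027 with RLE size factors and 0.013 without Rn45s.

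Plates with the same number did not deviate together across genotypes (median correlation 0.02, range -0.17 to 0.19 over 37 classes). Within a genotype the median correlation of plate deviations was also low, 0.04 in WT and 0.06 in KO. This measure therefore cannot show whether equal numbers pair samples. With a replicate block for the replicate number, 0 members were called in all 13 comparisons. The Sqle difference was 0.0015 with that replicate block and 0.013 with a block for plate within genotype. Depth limits Idi1, Lss and Stard4 most. Values of single genes that had passed on plate sums, all of genes outside the 8, lost the call 76 times, most often without WT plate 1 or 2, and values that had not passed gained one 15 times. The calls of Insig1 with whole plates summed and of Stard4 with ligands summed were lost on leaving out plates, as given with them.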
